A study of Homo sapiens with 2 samples.

Results

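Adjacent PROX1 peak pairs are neighbours on a chromosome whose centres lie 100 to 500 bp apart, short enough for both to sit within 1 regulatory element. Peaks of chromosomes 1 to 22 were sorted by start, and each consecutive pair within these bounds was kept. This gave 3315 pairs, which is 14.5% (95% interval 14.0 to 14.9) of the 22894 consecutive pairs formed by 22916 peaks. They held 6009 distinct peaks, or 26.2% (25.7 to 26.8) of the peaks on these chromosomes, and 33.2% of their tags. A tag is a sequenced read that the authors' list credits to a peak, over a counting window that is unknown, and the intervals here are exact binomial intervals that cover counting error only.

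The peaks came from 1 library of chromatin immunoprecipitated with a goat antibody against human PROX1, set against 1 library of input DNA without antibody. Both libraries were from SW480R cells, which were derived as a subpopulation from SW480, an established epithelial line from a human colorectal adenocarcinoma. Cells were fixed with formaldehyde and their chromatin was cut with an enzymatic kit, and 3 independent immunoprecipitations were pooled before sequencing. No variation between experiments could therefore be measured, and no test was made. The pairs were chosen by the listed positions of the peaks, and the tags and folds come from the same comparison of ChIP with input, so all values below are descriptions of 1 peak list. The total depth of each library is unknown, and the 22916 peaks held 869493 tags.

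PROX1 is the human relative of the fly protein Prospero, a homeodomain transcription factor. It directs the identity of lymphatic vessels and takes part in the development of liver, lens and nervous system, and in the colon it is known as a target of Wnt signalling that is raised in adenomas. Transcription factors often bind enhancers and promoters at several nearby sites, and a ChIP-seq peak caller may list these as 1 wide peak or as several narrow ones. Enzymatic cutting of chromatin takes place mainly in the linker DNA between nucleosomes, so both the protein and the cutting pattern can shape where reads pile up.

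The spacing of neighbouring PROX1 peaks began sharply at 120 bp and then declined almost without interruption. No 2 peaks on chromosomes 1 to 22 had centres closer than 120 bp, so the first 20 bp step of the range, from 100 bp, was empty. The step from 120 up to 140 bp held 378 pairs (95% Poisson interval 341 to 418), the largest number of any step. It was followed by 348 pairs from 140 bp, 342 from 160 bp, 307 from 180 bp and 276 from 200 bp. The first 3 of these counts have intervals that overlap, so their order is not resolved by counting. The count fell below 50% of the highest in the step from 260 bp, which held 177 pairs.

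Further out the counts became small and went on falling, by fewer pairs per step. The steps from 300 bp and 400 bp held 141 and 79 pairs, and the last full step, from 480 bp, held 57. Pairs at exactly 500 bp numbered 34. Over 18 comparisons of a step with the one before it, 1 step was higher, that from 440 bp with 78 pairs against 71, and 1 was equal. The 25 steps from 500 to 1000 bp held 24 to 56 pairs with a median of 38, and 9 of 24 lay above the step before. The first of these steps, with 56 pairs, includes the 34 at exactly 500 bp, which are inside the bound. The most frequent step held 6.75 times as many pairs as that step. The median distance within the bounds was 220 bp (interquartile range 160 to 310 bp), and 41.5% of pairs (39.8 to 43.2) lay closer than 200 bp.

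**Figure D1:**
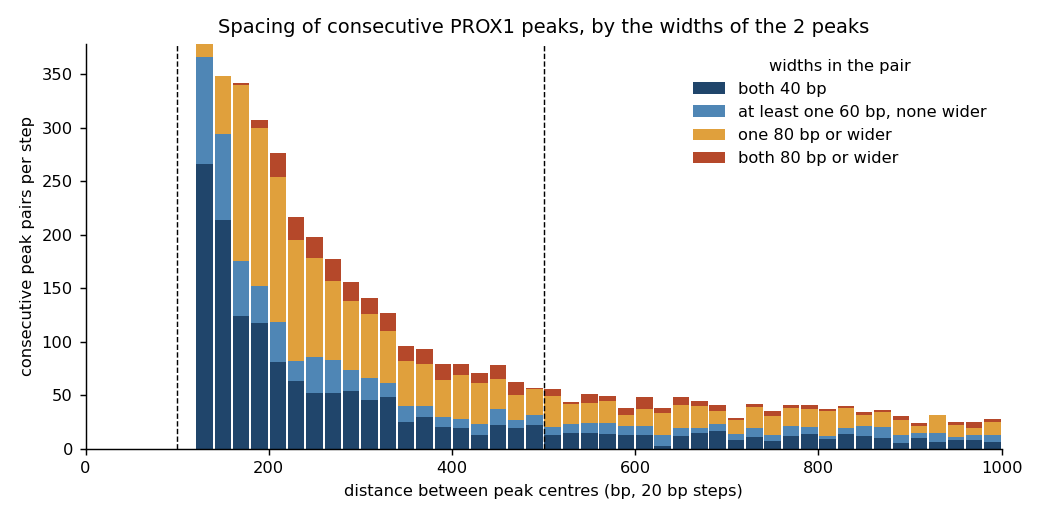
Number of consecutive peak pairs (y axis) in 20 bp steps of centre distance in bp (x axis), with bars split by the listed widths of the 2 peaks and dashed lines at the bounds of 100 and 500 bp. No pair lies below 120 bp, the tallest bar holds 378 pairs, and the bars fall to 57 pairs in the step from 480 bp, while pairs at exactly 500 bp are in the bar to the right of the line.

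No second preferred distance stood out from the decline, and the place of the maximum depended on where the steps began. With steps moved by 10 bp the fullest one began at 170 bp, and with 40 bp steps at 140 bp. In both settings the step that holds 120 bp reaches into the empty stretch below it. The sharp start at 120 bp is the same in both. All listed starts fall on 1 grid of 20 bp and widths are multiples of 20 bp. Centres can therefore sit 10 bp off that grid, and 1209 pairs (36.5%) had a distance that was an odd multiple of 10 bp. In each of these 1209 the widths of the 2 peaks differed by an odd multiple of 20 bp. Counting every pair of peaks within the bounds, consecutive or not, gave 3711 pairs, and the step from 120 bp was again the fullest.

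The stretch between the edges of 2 peaks gave a plainer picture than their centres. The most frequent edge gap was 80 bp, with 627 pairs, followed by 100 bp with 511, 120 bp with 340, 140 bp with 272 and 160 bp with 218. A gap under 80 bp was found in 41 pairs, 39 at 60 bp and 2 at 40 bp, and none of these held only peaks of 40 bp. The gap of 80 bp was the most frequent in every width class, while median centre distances were larger in the classes with wide peaks. The 1300 pairs of peaks that were both 40 bp wide, the lowest listed width, had a median centre distance of 180 bp. The 1253 pairs with 1 peak of 80 bp or wider had a median of 230 bp, and the 235 pairs with both peaks that wide had a median of 310 bp and none under 160 bp.

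Listed widths were unevenly filled. Among the 22916 peaks, 13124 were 40 bp wide and 374 were 80 bp wide, while 1638 were 120 bp and 1556 were 140 bp wide. Whether a wide peak is a pair of close peaks joined by the caller was not tested. A width of 80 bp or more was listed for 26.4% of the 6009 peaks in pairs (25.3 to 27.5), against 28.5% of the 16907 other peaks (27.8 to 29.2) and 27.9% of all peaks.

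Peaks in pairs held more tags than the other peaks of the list. Their median was 31 tags (interquartile range 19 to 58, highest 2047), against 23 tags in peaks outside pairs (16 to 40, highest 726). The median fold over input, as the authors deposited it, was 22.05 in pairs and 19.05 outside them. A strong peak is taken here as one with a fold of at least 26.06, or 2 times the lowest listed value. Fold and tags were equal within 1% in 16838 of all 23450 listed peaks. For these peaks the strong shares are no measure apart from the tags. Strong peaks made up 40.7% of peaks in pairs (39.4 to 41.9) and 26.8% of the others (26.1 to 27.5), where the share over all peaks of these chromosomes was 30.4%. Folds of 100 or more were listed for 126 peaks in pairs and for 96 of the others, 2.10% and 0.568% of each. Consecutive pairs 510 to 1000 bp apart came near the levels of the pairs at 100 to 500 bp. Strong peaks were 38.0% of their left and 35.6% of their right peaks, against 41.1% and 42.3%. Their medians were 48 tags in the higher peak and 20 in the lower, against 51 and 22.

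Raised input went along with pairing as well. Tags divided by fold approximate how many input tags a peak had, and the lowest value, near 1, was by far the most common. A value of 1.5 or more was found in 29.1% of peaks in pairs (27.9 to 30.2), in 22.6% of the others (21.97 to 23.2) and in 24.3% of all peaks. The part of input in the tag counts was not tested.

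The 2 peaks of a pair were usually unequal in tags. The peak with more tags had a median of 51 (interquartile range 31 to 84) and its partner a median of 22 (16 to 34), where the lowest count in the list is 13. The median ratio of the higher to the lower count was 1.86 (1.33 to 3). The counts lay within 2 times of each other in 1818 pairs (54.8%) and differed by more than 5 times in 301 (9.08%). Such inequality was not particular to close pairs. In other consecutive pairs the median ratio was 1.94 at 510 to 1000 bp and 1.82 at over 1 to 10 kb. It was 1.79 at over 10 to 100 kb and 1.625 at over 100 kb. No side was favoured: the left peak was higher in 1617 pairs, the right in 1634, and 64 pairs were equal.

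The count of the lower peak rose more slowly than that of the higher one. Where the higher peak had 26 to 50 tags (1138 pairs), the lower had a median of 20. This median was 27 where the higher peak had 51 to 100 tags (1074 pairs), 39 at over 100 to 200 tags (501 pairs) and 47 at over 200 tags (99 pairs). In that last class the lower peak ranged up to 615 tags, yet 23 of the 99 had under 26. The lower count cannot exceed the higher one nor fall under the limit of the list, so part of this rise is built into the choice of the 2 values.

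**Figure D2:**
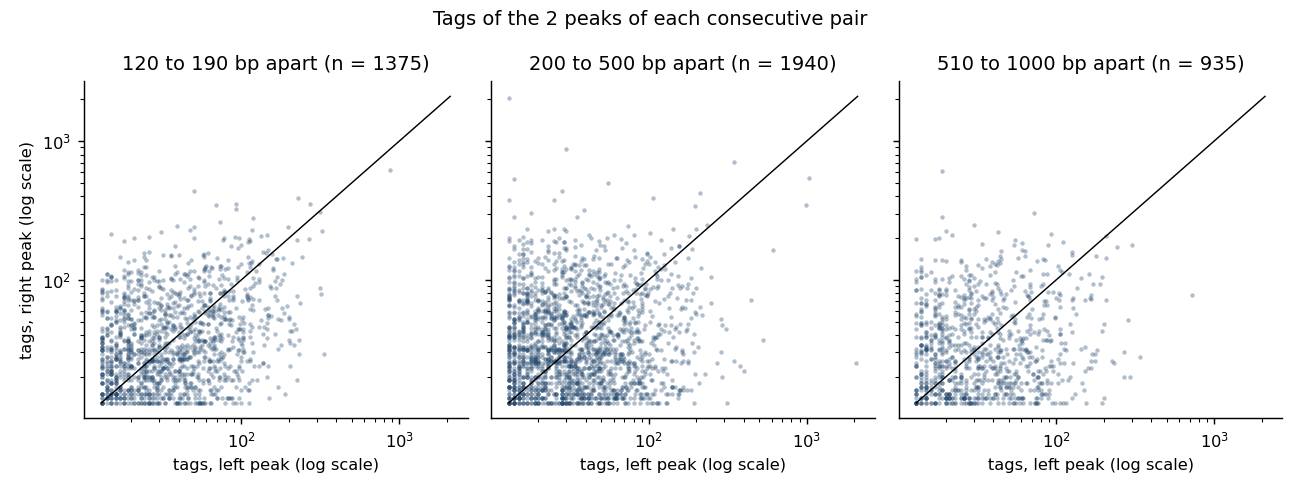
Tags of the left peak (x axis) and of the right peak (y axis), both on log scales, for 1375 pairs 120 to 190 bp apart, 1940 pairs 200 to 500 bp apart and 935 consecutive pairs 510 to 1000 bp apart, with the line of equal tags. The closest pairs follow the line loosely (Spearman correlation 0.257), while the points spread without clear direction at 200 to 500 bp (correlation 0.0406) and at 510 to 1000 bp (correlation 0.0786).

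The tag counts of the 2 peaks moved together only weakly, and mainly at the shortest distances. Over all 3315 pairs Spearman's correlation was 0.129, and Pearson's r of the log2 tags was 0.164. These peaks share 1 library and 1 caller, and a correlation this weak in thresholded counts is no finding in itself. The correlation was 0.257 in the 1375 pairs at 120 to 190 bp, 0.0668 in 1023 pairs at 200 to 290 bp, 0.0453 in 536 pairs at 300 to 390 bp and -0.0325 in 381 pairs at 400 to 500 bp. In consecutive pairs outside the bounds it was 0.0786 at 510 to 1000 bp (935 pairs), 0.0668 at over 1 to 10 kb (4237 pairs) and 0.0254 at over 10 to 100 kb (8352 pairs). With folds in place of tags, the classes within the bounds had correlations of 0.120, 0.00612, 0.0856 and 0.0310 from near to far. These did not decline steadily.

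In 20 bp steps the values were 0.360 from 120 bp, 0.303 from 140 bp and 0.251 from 160 bp. In the 16 steps from 180 bp onward the Spearman correlation lay between -0.112 and 0.191 and was above 0 in 11. The median ratio was 1.74 at 120 to 190 bp and between 1.95 and 2 in the 3 classes further out. Among pairs of 40 bp peaks alone, the Spearman correlation was 0.272 in the 721 closest pairs and 0.0937 in the 302 at 200 to 290 bp. Over all widths, the Spearman correlation was 0.257 in the closest pairs. It was lower, 0.153, in the 760 of them without raised input in either peak. Because that counting window is unknown, whether near neighbours share reads was not tested.

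**Figure D3:**
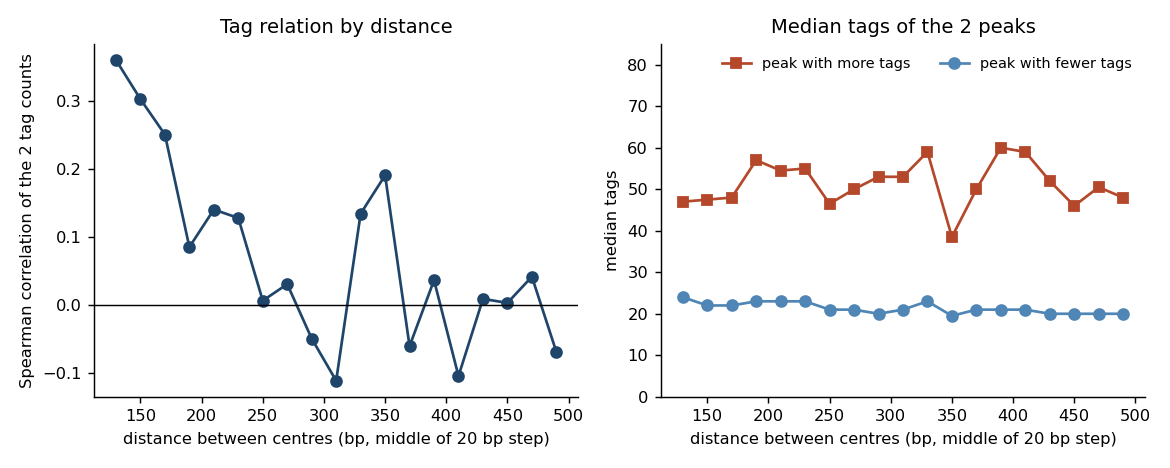
Left, Spearman correlation between the tags of the 2 peaks (y axis) by centre distance in 20 bp steps (x axis). Right, the median tags of the peak with more tags and of the peak with fewer tags in the same steps. The correlation is 0.360 in the first step and lies between -0.112 and 0.191 from 180 bp onward, while the median of the lower peak stays between 19.5 and 24 tags.

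Both peaks were strong in 604 pairs (18.2%, 16.9 to 19.6), 1 of them in 1558 (47.0%) and neither in 1153 (34.8%). Multiplying the strong shares of left and right peaks (41.1% and 42.3%) gives 17.4%, which lies within the interval of the measured share. At 120 to 190 bp both peaks were strong in 20.6% of pairs (18.5 to 22.8), where the product was 18.5%. Pairs with both peaks strong became scarcer with distance, at 14.4% for 400 to 500 bp, 14.1% for 510 to 1000 bp, 10.8% for over 1 to 10 kb and 6.19% for over 100 kb. The product of the left and right shares was 15.3%, 13.5%, 10.4% and 6.13% in these classes, so it fell alike. Raised input in both peaks was found in 12.9% of pairs at 120 to 190 bp, in 9.19% at 400 to 500 bp, in 11.0% at 510 to 1000 bp and in 4.23% of consecutive pairs over 100 kb apart.

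The pairs with the most tags on both sides lay mostly on the long arm of chromosome 8. Pairs were ranked by the tags of their lower peak, and 6 of the first 10 fell between 126736931 and 129636791 of that chromosome (hg18), a stretch with 47 pairs in all. The first had 873 tags at 128300311 to 128300351 and 615 tags at 128300471 to 128300511, with centres 160 bp apart. Their folds were 25.74 and 102.76, so the peak with more tags had the lower fold. In the second pair, 380 bp apart, a 300 bp wide peak at 126736931 to 126737231 had 1027 tags and its neighbour at 126737371 to 126737551 had 538. The third, 200 bp apart, had 991 tags at 129636511 to 129636631 and 344 tags at 129636751 to 129636791.

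The other high pairs of this stretch had ratios of 2.05, 1.03 and 1.70. The pair at 128117131 to 128117171 and 128117291 to 128117471 had 344 and 704 tags, both at folds above 100 (114.95 and 100.82). The pair at 129249311 to 129249351 and 129249431 to 129249471 was nearly equal, with 316 and 306 tags 120 bp apart. At 126745951 to 126745991 and 126746091 to 126746131 the counts were 227 and 387, with centres 140 bp apart.

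Chromosome 2 gave 2 of the first 10 pairs. The pair at 27797811 to 27797851 and 27797931 to 27797971 had 273 and 353 tags and lay 120 bp apart, which also made it the one with the most tags in the fullest step. The pair at 38542851 to 38542891 and 38543051 to 38543191 had 235 and 247 tags, 250 bp apart. On chromosome 19, the peaks at 46970291 to 46970331 and 46970451 to 46970491 had 322 and 226 tags, and on chromosome 7 those at 104371291 to 104371451 and 104371551 to 104371591 had 211 and 424. Both peaks had raised input in all 10 of these pairs, with tags over fold between 2.99 and 34.9. Among all 3315 pairs, both peaks had raised input in 398. The 10 pairs were picked by the tags of their lower peak, and the part of input in those tags was not tested.

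The most unequal pairs shared a few very tall peaks. The peak at 128824591 to 128824631 of chromosome 8 had 2047 tags, the most of any peak in a pair, and stood between neighbours of 13 and 25 tags at 300 and 430 bp. These are the pairs with the highest ratios, 157 and 81.9. The peak with 873 tags that belongs to the highest-ranked pair had a neighbour of 30 tags on its other side, 320 bp away, a ratio of 29.1. On chromosome 20 the peaks at 37594191 to 37594231 and 37594411 to 37594531 had 14 and 532 tags (ratio 38.0), and on chromosome 8 those at 128733351 to 128733411 and 128733631 to 128733931 had 13 and 377 (ratio 29.0).

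Further pairs show the bounds and the fullest step. In the fullest step, the third pair by tags had 50 and 438 tags at 126768051 to 126768091 and 126768171 to 126768211 of chromosome 8. Just inside the upper bound, at 500 bp, the pair at 28102131 to 28102351 and 28102611 to 28102871 of chromosome 12 had 205 and 33 tags. The pair at 29615331 to 29615591 and 29615891 to 29616031 of chromosome 7 had 115 and 90. Just outside, at 510 bp, 22 pairs were left out. The one with the most tags had 20 and 225 tags, at 90452731 to 90452771 and 90453191 to 90453331 of chromosome 10. It was followed by 2 pairs with equal sums of 176 tags, of which the one at 53651471 to 53651691 and 53652071 to 53652111 of chromosome 1 had 44 and 132. Nothing lay just below the lower bound.

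Pairs that share a peak form chains. The 3315 pairs made up 2694 groups, of which 2177 were a pair on its own and 517 were chains of 3 or more peaks. There were 429 chains of 3 peaks, 73 of 4, 14 of 5 and 1 of 6. These 517 chains held 1138 pairs (34.3%, 32.7 to 36.0) and 1655 of the 6009 peaks. A pair was followed directly by another pair in 18.7% of cases (17.4 to 20.1), against 13.8% (13.3 to 14.3) after a consecutive pair outside the bounds.

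The inner peak of a chain of 3 was the tallest more often than either end. In the 429 such chains the median was 28 tags on the left (interquartile range 18 to 52), 44 in the middle (25 to 81) and 32 on the right (19 to 55). Of 425 chains with a single highest peak, it was the middle one in 201 (47.3%, 42.5 to 52.2), the left in 96 (22.6%) and the right in 128 (30.1%). Among 9642 sets of 3 consecutive peaks with both distances over 10 kb and a single highest peak, which overlap each other, the middle one was the highest in 31.0% (30.1 to 31.9). Strong peaks made up 53.4% of middle peaks, 37.3% of left and 43.4% of right peaks. Input was raised in 33.1% of middle peaks, 24.9% of left and 28.7% of right ones, and its part in the tags was not tested. In all 9914 sets of 3 peaks with both distances over 10 kb, these shares were lower at each place. There, 24.1% of middle, 26.6% of left and 26.5% of right peaks were strong. Raised input was found in 20.2% of middle, 20.9% of left and 21.6% of right peaks of those sets.

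Chains of 4 peaks had medians of 33, 39, 47 and 31 tags from left to right. The highest peak was at place 2 in 24 and at place 3 in 26 of the 73 chains, and at the outer places in 14 and 9. With distances over 10 kb, the 4 places had medians between 21 and 23 tags.

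**Figure D4:**
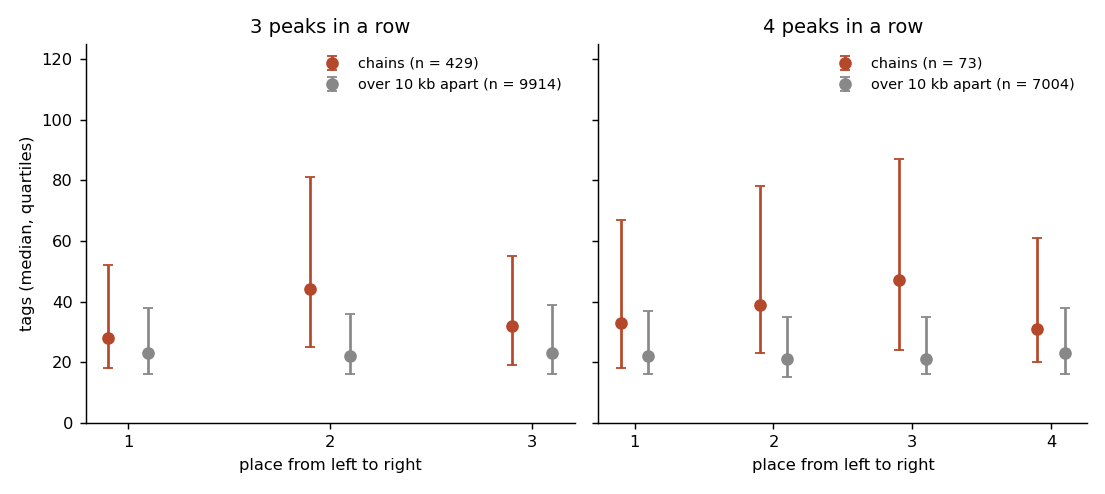
Tags (y axis; points are medians, bars quartiles) by place in the row (x axis) for chains of 3 peaks (n = 429) and of 4 peaks (n = 73), each beside sets of as many consecutive peaks that lie over 10 kb apart. Inner peaks of chains have the higher medians, 44 tags in chains of 3, while the widely spaced peaks have medians of 21 to 23 tags at every place.

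Distances within a chain showed little regularity. In chains of 3, the first distance had a median of 220 bp and the second one of 210 bp, and their Spearman correlation was 0.127 over 429 chains. They differed by at most 20 bp in 87 chains (20.3%, 16.6 to 24.4). In chains of 4 the figure was 34 of 146 successive distances (23.3%, 16.7 to 31.0). Chains of 3 spanned a median of 540 bp from first start to last end, and chains of 4 a median of 740 bp.

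The longest chain, on chromosome 5 at 1988811 to 1989951, held 6 peaks with 17, 44, 23, 138, 46 and 14 tags. Its centres were 180, 400, 260, 140 and 120 bp apart, and its tallest peak stood at place 4. The length of the longest chain depended on the bound: with an upper bound of 600 bp it was 9 peaks. The 5-peak chain with the most tags was at 101949971 to 101950911 of chromosome 8, with 117, 228, 21, 130 and 13 tags. Here 2 tall peaks were separated by a low one, at distances of 120, 240, 240 and 260 bp. The next, at 24972031 to 24972731 of chromosome 7, was the most evenly spaced of the first 3, with steps of 170, 150, 150 and 160 bp and 169, 72, 101, 51 and 40 tags. It was also the shortest, at 700 bp, of the 10 chains described here, which are the chain of 6 and the 9 chains of 5 peaks with the most tags.

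Chromosome 12 held 3 of these 10 chains. At 6351911 to 6353031 the tags were 119, 99, 35, 74 and 70, so no peak was near the lowest count. The chain at 51606051 to 51606911 had 24, 82, 97, 26 and 72 tags, and that at 129304451 to 129305351 had 14, 23, 41, 102 and 38. In the last one the counts climbed up to place 4 and then dropped.

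The remaining 4 chains lay on chromosomes 9, 13, 19 and 16. On chromosome 9, at 97526471 to 97527311, the tags were 42, 29, 98, 48 and 119, with the highest at the right end. On chromosome 13, at 50149891 to 50151171, they were 17, 31, 70, 94 and 22, over the longest span of the 10, 1280 bp. Those on chromosome 19, at 15268791 to 15269891, were 27, 20, 59, 88 and 39, and those on chromosome 16, at 64257371 to 64258631, were 14, 23, 115, 41 and 30. The highest peak was an inner one in 7 of the 10 chains and in 10 of all 15 chains of 5 or more peaks. Most places in such chains are inner ones, so these counts are not read as a preference for inner peaks. In each of the 10 chains the highest peak had raised input, and these chains were picked from those of 5 peaks by their tags. Of the 51 peaks in these chains, 31 were without raised input and 24 were strong. Over all peaks of chromosomes 1 to 22, 24.3% had raised input and 30.4% were strong.

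**Figure D5:**
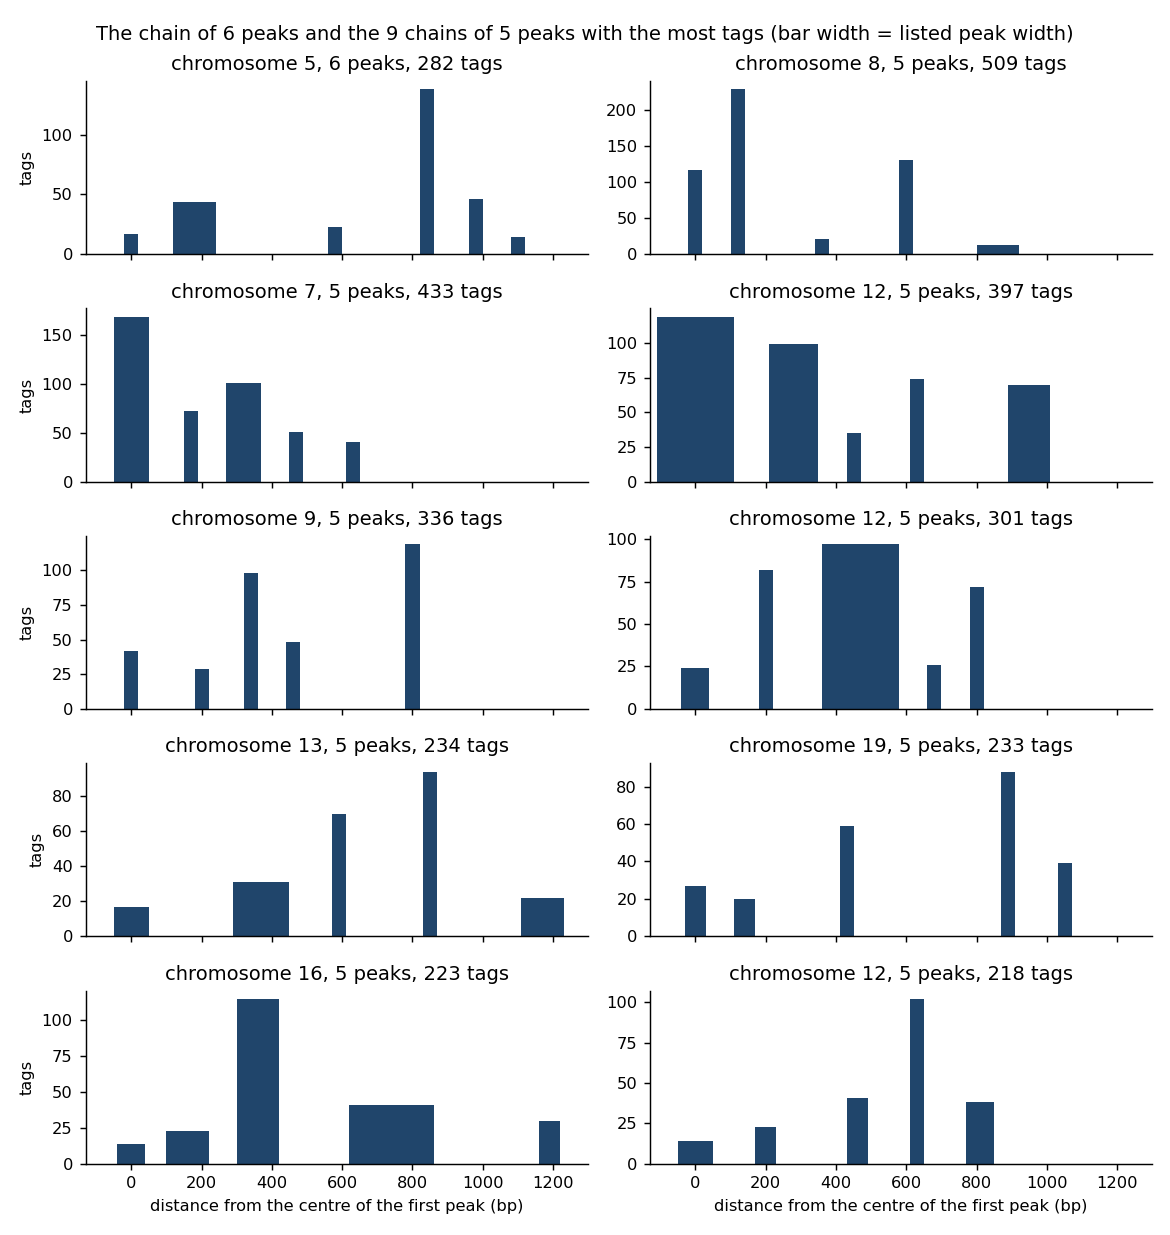
Tags of each peak (y axis) against its distance in bp from the centre of the chain's first peak (x axis) for the chain of 6 peaks and the 9 chains of 5 peaks with the most tags, with bars as wide as the listed peaks. The chain on chromosome 5 has 6 peaks with up to 138 tags, and the evenly spaced one on chromosome 7 fits within 700 bp.

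Pairs were found on each of the 22 chromosomes, in unequal shares. Peaks in pairs made up 34.0% of the peaks of chromosome 21 (29.3 to 39.0, 73 pairs), 31.3% of chromosome 20 (28.1 to 34.7, 139 pairs) and 18.9% of chromosome 4 (16.3 to 21.8, 80 pairs), which was the lowest share. Chromosome 1 held the most pairs, 329, at a share of 26.4% (24.6 to 28.3). Median distances ranged from 200 to 260 bp. Spearman's correlation of the tags was above 0 on 18 of 22 chromosomes, from -0.145 on chromosome 22 (66 pairs) to 0.376 on chromosome 18 (92 pairs). In the stretch of chromosome 8 that holds the highest-ranked pairs, chosen after the values were seen, it was 0.431 over 47 pairs.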

How the data were processed

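Per the series' text, 3 immunoprecipitations were pooled into 1 PROX1 ChIP library, which was compared with 1 input library. The deposited peak list, on hg18 per the submitters' processing notes, has no header. Its columns were read from their values: tag counts per peak (whole numbers, not normalized), the authors' fold of ChIP over input, a linear ratio, and a deposited p-value per peak, which was not used. For the aligner, caller and thresholds: not given in the sources used here. Whether starts count from 0 or 1 is unknown, so coordinates are printed as listed.

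Centres were midpoints of start and end. The 534 peaks on X, Y and the mitochondrial genome were left out. Steps include their lower edge. Chains are runs of pairs joined by a shared peak. Intervals are exact binomial (Clopper-Pearson) or exact Poisson, treat neighbouring peaks as independent and cover counting error only. Reads without molecular identifiers are not independent molecules.

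The pairs, classes and comparisons were chosen with earlier results of these data known. The printed items follow fixed rules: the 10 pairs with the highest lower-peak tags, the 5 with the highest ratios, the 3 with the most tags in the fullest step, 2 at each bound and the 10 chains with the most peaks, with ties ordered by summed tags. Pair and chain detection was tested on simulated peaks. Python 3.11.15, numpy 2.4.6, scipy 1.17.1, pandas 2.3.3 and matplotlib 3.10.9 were used. No gene annotation or genome sequence was used here.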

Additional observations from a re-analysis of the deposited data

Results flagged for a closer look

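Chromosome X lies outside the 22 chromosomes described, and its 500 peaks formed 67 pairs with centres 100 to 500 bp apart. The 33 peaks of the mitochondrial genome formed 20 such pairs. Both counts come from data not used for the comparisons above. Whether pairs were more frequent there than on the other chromosomes was not tested, nor was any cause.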

How the results depend on the processing

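There were no replicates, so results were recomputed under other choices, and 62 of 89 recomputed values stayed within the interval of the main value or within 1.5 times a count. Those with a lower bound of 80 bp, 120 bp or none could not change, because no consecutive pair lay under 120 bp. No paired analysis was possible because there is 1 library of each kind. Nothing moved without chromosome 8, with X and Y, with distances between starts or without the top 1% of tags. The longest chain held 9 peaks with an upper bound of 600 bp and 8 with bounds on edge gaps. Both were counted as within 1.5 times the main value of 6. Among the better-ranked 50% of the list by fold there were 1318 pairs and 159 chains of 3 or more peaks, with a Spearman correlation of 0.169, a median ratio of 1.70 and 68.1% strong peaks. Bounds applied to edge gaps gave a median of 180 bp, a fullest step from 100 bp and a highest step 5.55 times the median step (2.82 for centres). The Spearman correlation was then 0.0808 and the ratio 1.93. These bounds leave out gaps under 100 bp, among them the most frequent, 80 bp with 627 pairs. That fullest step and median are therefore shaped by the cut. With 40 bp peaks alone there were 1337 pairs, a median distance of 180 bp, a highest step 5.37 times the median one, a Spearman correlation of 0.165, 42.1% strong peaks and 153 chains. The fullest step began at 170 bp with steps moved by 10 bp and at 140 bp with 40 bp steps. For tags, Pearson's r was 0.164. With folds in place of tags the Spearman correlation was 0.0706 and the ratio 1.60, and in pairs that share no peak the ratio was 1.80. Strong peaks in pairs were 59.8% at 1.5 times the lowest fold (49.5% of all peaks) and 20.6% at 3 times (13.5%). In splits chosen after seeing the data, the Spearman correlation was 0.257 in pairs closer than 200 bp and 0.0406 in the others. It was 0.0814 in pairs without raised input in either peak. The middle peak was the highest in 48.3% of chains of 3 without chromosome 8. The causes were not tested.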
